A study of Mus musculus with 27 samples.

Results

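The genes described here are 8 members of the inflammatory CXC chemokine system of the mouse, the ligand genes Cxcl1, Cxcl2, Cxcl9, Cxcl10, Cxcl11 and Cxcl16 and the receptor genes Cxcr3 and Cxcr6, of 55487 genes in the count table. They were found by matching the Ensembl identifiers of the table to these symbols in the GENCODE M21 annotation of GRCm38. RNA-seq was performed on cortex and hippocampus of male wild-type C57Bl/6J mice that were 8 weeks old when osmotic pumps began to infuse the right lateral ventricle for 14 days at 0.25 μl per hour, and the tissue came from the other hemisphere. The study asked what autoantibodies against IgLON5, an adhesion protein of the neuronal surface, do in the brain.

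All groups received the same surgery and differ in what was infused. The IgLON5 mice received antibodies against IgLON5 that had been affinity-purified from patient plasma, a polyclonal human preparation (n = 4 hippocampi and 4 cortices, mice 8, 9, 16 and 17). The mIgG mice received a control human IgG (n = 4 hippocampi and 5 cortices, mice 10, 15, 37 and 75, with mouse 11 in cortex). The sample labels describe that control as a non-reactive monoclonal antibody, whereas the study's methods describe serum IgG of a healthy person, so its exact nature is not settled here. The PBS mice received saline (n = 5 of each tissue, mice 14, 32, 33, 38 and 74). All IgLON5 mice carry numbers from 8 to 17 and most controls carry higher ones, so anything that goes with the number cannot be fully told apart from the antibody. Human IgG is foreign protein to a mouse, and the PBS group received none.

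Chemokines are small secreted proteins that guide leukocytes through G protein-coupled receptors. CXCL1 and CXCL2 carry the ELR motif and attract neutrophils through CXCR2, and their genes are classical targets of NF-kappaB downstream of IL-1, TNF and IL-17. CXCL9, CXCL10 and CXCL11 are induced by interferons and attract activated T and NK cells through CXCR3, and in brain they are made mainly by glia, macrophages and endothelium. CXCL16 is made as a membrane-anchored protein by myeloid and endothelial cells, is released by the proteases ADAM10 and ADAM17, and binds CXCR6 on T cells and other lymphocytes.

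The ligand genes Cxcl1, Cxcl2, Cxcl9 and Cxcl10 lie together on chromosome 5. Cxcl1 spans chr5:90891241-90893115 and Cxcl2 spans chr5:90903871-90905938, both on the plus strand. Cxcl9 spans chr5:92321347-92328079, Cxcl10 spans chr5:92346638-92348889 and Cxcl11 spans chr5:92359544-92365485, all on the minus strand. Cxcl11 is annotated as a polymorphic pseudogene, and C57BL/6 mice are known to carry a form of it that makes no intact chemokine. Cxcl16 is at chr11:70453983-70459984 on the minus strand, Cxcr3 at chrX:101731535-101734269 on the minus strand and Cxcr6 at chr9:123806475-123811760 on the plus strand.

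Promoter sequences from RefSeq on build GRCm38.p6 were matched for 6 of the 8 genes, all but Cxcl11 and Cxcl16, as the 250 bases before the start that RefSeq gives. That start equals the GENCODE start for Cxcl9 and Cxcl10 and lies inside the GENCODE span for Cxcl1, Cxcl2, Cxcr3 and Cxcr6, so these windows reach into the spans given above. The 4 ligand promoters are shown because these are the ligands whose sequence was matched, and capitals mark matches to an NF-kappaB pattern (GGGANNNNCC) or an interferon-stimulated response element, ISRE (GAAANNGAAA), searched on both strands. They read 5′ to 3′ in the direction of the gene, from chr5:90890995-90891244 on the plus strand, chr5:90903649-90903898 on the plus strand, chr5:92328080-92328329 on the minus strand and chr5:92348890-92349139 on the minus strand.
Cxcl1: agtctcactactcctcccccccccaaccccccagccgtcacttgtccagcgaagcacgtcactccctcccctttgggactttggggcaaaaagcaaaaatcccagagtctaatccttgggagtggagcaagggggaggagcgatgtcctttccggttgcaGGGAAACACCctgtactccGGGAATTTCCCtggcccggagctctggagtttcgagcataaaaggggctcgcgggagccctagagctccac
Cxcl2: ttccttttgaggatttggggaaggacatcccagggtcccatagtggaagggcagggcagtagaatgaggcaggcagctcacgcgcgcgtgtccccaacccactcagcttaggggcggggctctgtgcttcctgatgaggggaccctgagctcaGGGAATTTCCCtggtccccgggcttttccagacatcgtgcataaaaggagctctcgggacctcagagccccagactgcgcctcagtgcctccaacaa
Cxcl9: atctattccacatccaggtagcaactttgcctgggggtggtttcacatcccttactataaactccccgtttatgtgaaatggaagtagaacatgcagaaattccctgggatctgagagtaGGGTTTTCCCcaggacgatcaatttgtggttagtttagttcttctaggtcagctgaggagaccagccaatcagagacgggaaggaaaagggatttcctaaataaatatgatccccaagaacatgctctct
Cxcl10: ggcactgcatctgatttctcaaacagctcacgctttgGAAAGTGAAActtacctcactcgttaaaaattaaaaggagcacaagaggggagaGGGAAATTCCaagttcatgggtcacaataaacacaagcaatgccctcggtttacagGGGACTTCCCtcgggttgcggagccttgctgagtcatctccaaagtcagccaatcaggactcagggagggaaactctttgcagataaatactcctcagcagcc
Counted from the RefSeq start, the NF-kappaB pattern lies 90 and 71 bases before Cxcl1 and 97 bases before Cxcl2, and in both genes the nearer run overlaps a match on the other strand shifted by 1 base. Cxcl9 holds it 130 bases before the start on the other strand. Cxcl10 holds it at 159 and 103 bases and is the 1 promoter of the 6 with the ISRE pattern, 213 bases before the start. Of 32851 promoters of the same length, 17.6% hold the NF-kappaB pattern, 2.98% the ISRE pattern and 7.02% the pattern of a gamma-activated site (TTCNNNGAA), which matched in none of the 6. These are matches of letters in a window, and the Cxcr3 and Cxcr6 windows held none.

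The 27 libraries came from 14 mice and held between 19385642 and 58550621 counts, with a median of 34061205. Each IgLON5 hippocampus (19428512 to 32776892 counts) was shallower than each mIgG hippocampus (39479753 to 52212204). Raw counts of these groups are thus at unlike depth. The labels call the cell type neurons, but the tissue was whole. Markers of neurons summed to between 6199 and 9029 CPM (counts scaled to equal library size) over the libraries, those of astrocytes to between 2143 and 3742 CPM, and those of microglia and macrophages to between 269.7 and 881.8 CPM. Marker sums of hippocampus were 536.5 to 981.1 CPM in hippocampal and 220.3 to 340.9 CPM in cortical libraries, so the 2 tissues were told apart as labelled. Within hippocampi that sum was lower in mIgG mice (median 610.9 CPM) than in PBS (788.6) or IgLON5 mice (747.8), with overlapping ranges, and the sum of cortex markers was higher (median 201.1 beside 152.2 and 158.1 CPM). The cortex marker sum was also highest by median in the mIgG mice among cortices (587.9 beside 435.3 in PBS and 400.2 CPM in IgLON5 mice). No marker of either list was called in any comparison between treatments, and the part of tissue content in the comparisons with mIgG, and in the tissue differences against mIgG, was not tested. The scaling used TMM library sizes here and below. In such bulk tissue, fewer cells of a type and less RNA per cell cannot be told apart.

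Cxcl16, the transmembrane ligand of CXCR6, rose in all 4 IgLON5 mice and in both tissues, and Cxcl10, a CXCR3 ligand, rose further on average with mouse 8 far above the rest. Of the 8 genes, 6 reached at least 10 counts in at least 4 libraries and were tested. Cxcl2 and Cxcl11 did not. Only Cxcl10 and Cxcl16 would have reached that minimum in the controls alone, with 10 counts in 10 and 19 of the 19 control libraries. Cxcl1 did so in 1 control library and Cxcl9, Cxcr3 and Cxcr6 in 2 each, so these 4 entered the test through the IgLON5 libraries, where they were high, and the counts over the 6 are a description. A gene was called where its fold change exceeded 2 and its adjusted p was below 0.05 in edgeR's quasi-likelihood test with Benjamini-Hochberg adjustment over 20271 genes, and adjusted p-values below are from that test. In the hippocampus, 2 of the 6 were called higher in IgLON5 than in mIgG mice (Cxcl10 and Cxcl16), where 2.21% of all tested genes were. Against PBS it was 4 of 6 (Cxcl9, Cxcl10, Cxcl16 and Cxcr6), where 2.56% of all were. In the cortex, 5 of 6 were called higher than in mIgG mice (all but Cxcr3), where 2.14% of all were, and 4 of 6 than in PBS mice (Cxcl1, Cxcl9, Cxcl10 and Cxcl16), where 2.24% of all were. None of the 6 was called lower, where 0.237% and 0.109% of all were in the hippocampus and 0.0247% and 0.00493% in the cortex against mIgG and PBS. By level alone, all 4 IgLON5 libraries were above all mIgG libraries for 2 of the 6 genes in the hippocampus (Cxcl1 and Cxcl16), as for 6.68% of all tested genes, and above all PBS libraries for 4 of the 6 (Cxcl9, Cxcl10, Cxcl16 and Cxcr6), as for 4.49%. In the cortex 4 of the 6 were above all mIgG and also above all PBS libraries (Cxcl1, Cxcl9, Cxcl16 and Cxcr6), as for 3.68% and 3.14% of all genes. The 2 comparisons within a tissue share the IgLON5 libraries and are not independent of each other.

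**Figure D1:**
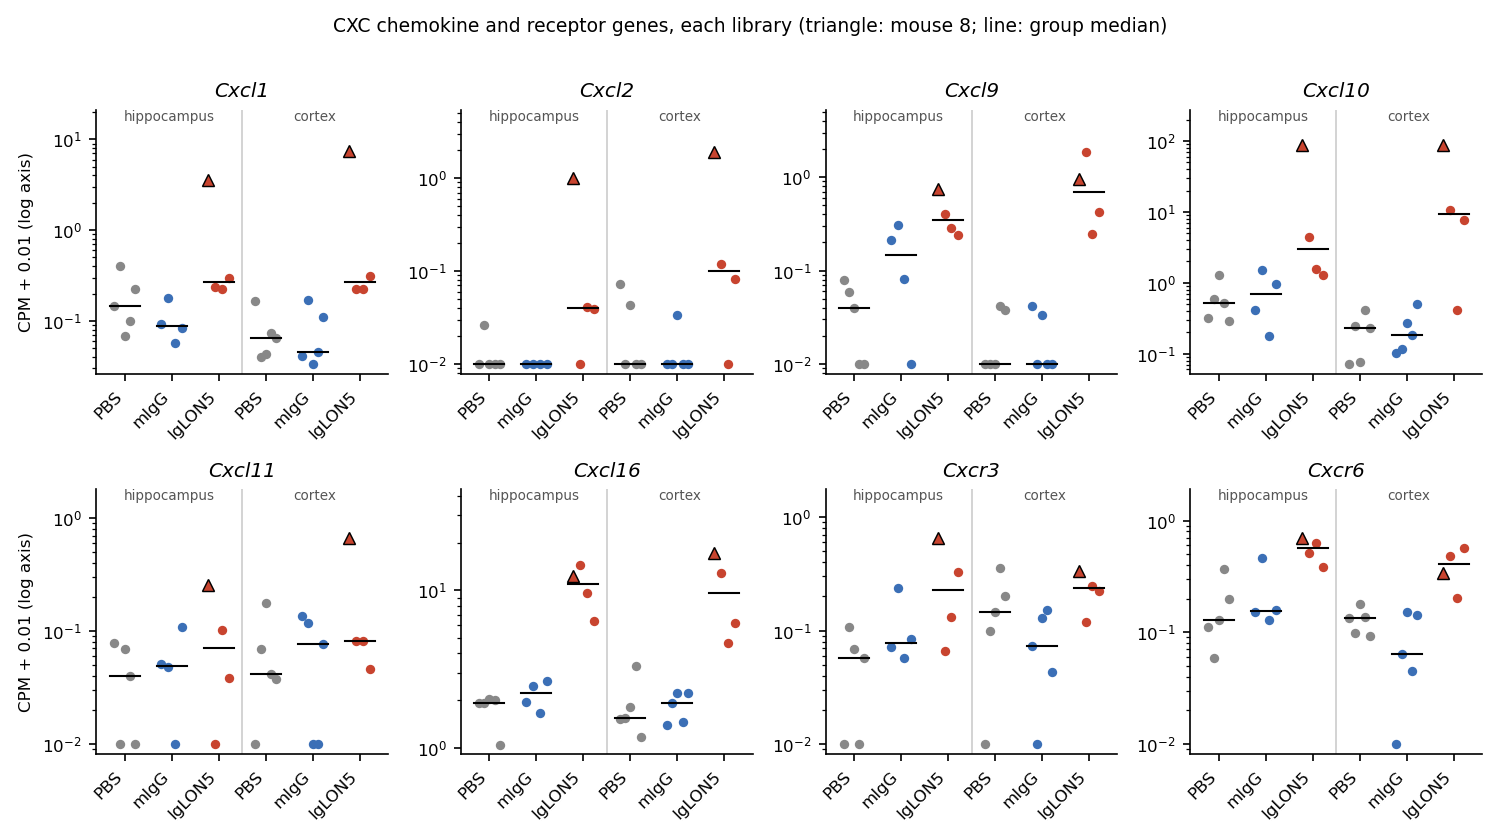
Level of each gene in every library as CPM plus 0.01 on a log axis, for 3 treatments in hippocampus (left of the grey line) and cortex (right), with black lines at the group medians and mouse 8 as outlined triangles. Cxcl16 was above every control in all 4 IgLON5 mice of both tissues, whereas Cxcl1, Cxcl2, Cxcl10 and Cxcl11 were highest in mouse 8.

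Cxcl16 was the most abundant of these ligands per length of transcript in control brain, with a median of 0.632 RPKM in PBS hippocampi beside 0.224 RPKM for Cxcl10. In the hippocampus, Cxcl16 stood at 12.3, 14.6, 9.65 and 6.36 CPM in IgLON5 mice 8, 9, 16 and 17. It stood at 1.94, 2.46, 1.64 and 2.65 CPM in mIgG mice 10, 15, 37 and 75 and at 1.91, 1.90, 2.02, 1.99 and 1.04 CPM in the PBS mice in the order of their numbers. All 4 IgLON5 hippocampi were above all 9 controls, as were 3.22% of tested genes. The log2 fold change was 2.29 ± 0.349 (SE) against mIgG (adjusted p = 0.000111) and 2.59 ± 0.331 against PBS (adjusted p = 5.58e-06).

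In the cortex, Cxcl16 stood at 17.3, 12.9, 4.62 and 6.19 CPM in IgLON5 mice 8, 9, 16 and 17. The mIgG cortices (mice 10, 11, 15, 37 and 75) held 1.38, 1.92, 2.21, 1.44 and 2.23 CPM, and the PBS cortices (mice 14, 32, 33, 38 and 74) held 1.50, 1.54, 1.81, 3.31 and 1.15 CPM. Again no IgLON5 cortex overlapped a control, as for 2.17% of tested genes, with mouse 16 nearest to the highest control, PBS mouse 38. The log2 fold change was 2.47 ± 0.333 against mIgG (adjusted p = 3.45e-05) and 2.46 ± 0.330 against PBS (adjusted p = 2.57e-05). By group median the order was IgLON5 hippocampus (11.0 CPM), IgLON5 cortex (9.55), mIgG hippocampus (2.20), mIgG cortex (1.92), PBS hippocampus (1.91) and PBS cortex (1.54), and among neighbours in that order only IgLON5 cortex and mIgG hippocampus had ranges that did not overlap. Among mice numbered 8 to 17 alone, with 2 mIgG hippocampi and 3 mIgG cortices, the log2 fold change against mIgG was 2.27 (adjusted p = 0.0957) and 2.48 (adjusted p = 0.0608), so its size held and the call was lost. In that subset 0 of the 6 genes were called in either tissue.

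Cxcl16 shares its locus with Zmynd15, which overlaps it on the opposite strand. The library kit keeps strand, but the counting setting is not given in the sources used here, so reads of the overlap may be split between both. Zmynd15 was called too, with a log2 fold change of 2.28 ± 0.291 against mIgG in the hippocampus (adjusted p = 9.67e-06) and 1.96 ± 0.282 in the cortex (adjusted p = 7.79e-05), at 2.35 to 5.17 CPM in IgLON5 hippocampi. The counts of the pair cannot be told apart in full.

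Cxcl10 differed widely among the IgLON5 mice. In the hippocampus it stood at 86.5, 4.45, 1.56 and 1.29 CPM in IgLON5 mice 8, 9, 16 and 17. The mIgG mice 10, 15, 37 and 75 held 0.409, 1.49, 0.167 and 0.958 CPM, and the PBS mice held 0.307, 0.574, 1.26, 0.505 and 0.283 CPM. Mouse 8 was 55.4 times the median of the other 3, and mouse 17 was below the highest mIgG hippocampus, so the groups overlapped. The log2 fold change was 4.91 ± 1.21 against mIgG (adjusted p = 0.0137) and 5.31 ± 1.16 against PBS (adjusted p = 0.00445). Without mouse 8 in either tissue it was 1.60 ± 0.720 (adjusted p = 0.245) and 1.99 ± 0.707 (adjusted p = 0.178), and neither was called. The call against mIgG was also lost without mIgG mouse 10 or mIgG mouse 37, at 4.68 (adjusted p = 0.0567) and 4.60 (adjusted p = 0.0658), and with only the groups compared, at 4.90 (adjusted p = 0.121).

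In the cortex, Cxcl10 stood at 88.1, 10.6, 0.405 and 7.76 CPM in IgLON5 mice 8, 9, 16 and 17. The mIgG mice 10, 11, 15, 37 and 75 held 0.0939, 0.106, 0.259, 0.176 and 0.499 CPM, and the PBS mice held 0.0626, 0.237, 0.0672, 0.410 and 0.220 CPM. Mice 8, 9 and 17 were above all 10 controls and mouse 16 was inside their range. The log2 fold change was 6.80 ± 1.33 against mIgG (adjusted p = 0.00214) and 7.03 ± 1.34 against PBS (adjusted p = 0.00146), and it was also called without mouse 8, at 4.71 ± 0.757 (adjusted p = 0.000479) and 4.93 ± 0.762 (adjusted p = 0.000248). Art3 overlaps Cxcl10 on the opposite strand and was not called, with a log2 fold change of -0.32 ± 0.191 in the hippocampus and 0.15 ± 0.178 in the cortex against mIgG.

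**Figure D2:**
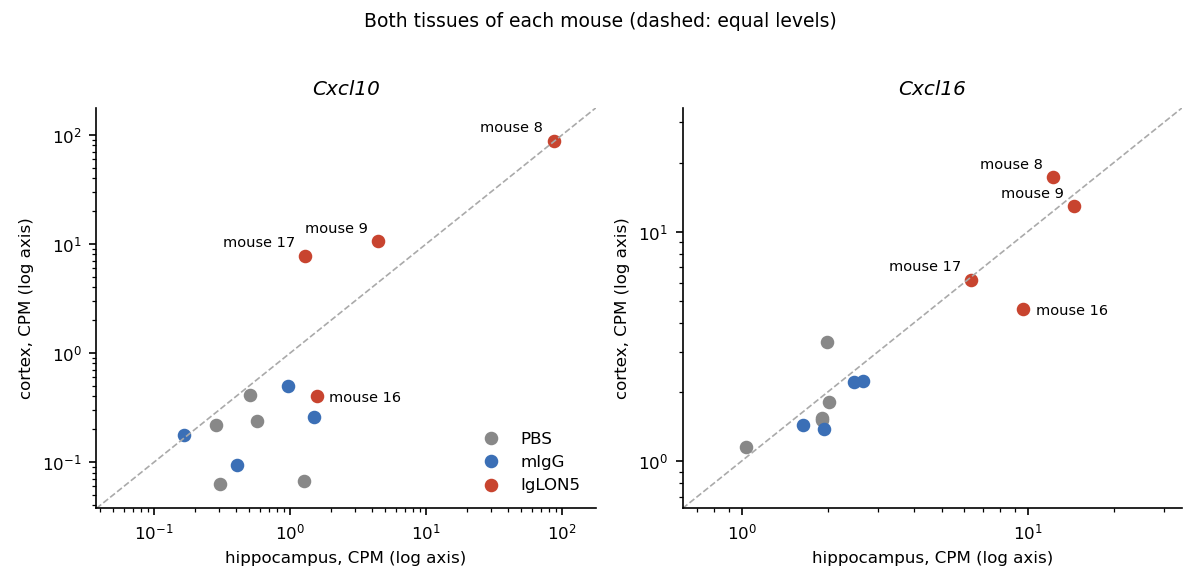
Cxcl10 (left) and Cxcl16 (right) in hippocampus (horizontal) and cortex (vertical) of the 13 mice with both tissues, CPM on log axes, with a dashed line of equal levels. Mouse 8 lies near 86.5 and 88.1 CPM of Cxcl10, and mouse 16 lies among the controls for cortical Cxcl10 but not for Cxcl16.

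Cxcl9, the second CXCR3 ligand, was a gene of few reads. The IgLON5 hippocampi held 15, 7, 9 and 8 counts in mice 8, 9, 16 and 17, or 0.738, 0.394, 0.276 and 0.229 CPM. The mIgG hippocampi held 10, 16, 3 and 0 counts in mice 10, 15, 37 and 75, or 0.204, 0.301, 0.0714 and 0 CPM, and the PBS hippocampi held 2, 3, 1, 0 and 0 counts. IgLON5 hippocampi were thus above all PBS hippocampi but overlapped the mIgG ones. Cxcl9 had a log2 fold change of 1.33 ± 0.669 against mIgG (adjusted p = 0.246, not called) and 3.56 ± 0.831 against PBS (adjusted p = 0.00854), and the latter call was lost without mouse 8 (3.13, adjusted p = 0.066).

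In the cortex Cxcl9 was almost without reads in the controls, with 35, 51, 10 and 23 counts in mice 8, 9, 16 and 17 beside 2 counts in all 5 mIgG cortices together and 2 in all 5 PBS cortices. Mouse 9, not mouse 8, was highest, at 1.84 CPM. The ratio of the pooled rates was 55.6 against mIgG, with an exact 95% interval of 15.1 to 465 that covers counting error only, and 60.0 against PBS (16.2 to 501). Both comparisons were called (adjusted p = 0.0002 and 0.000115), and they stayed called without mouse 8 (adjusted p = 0.000685 and 0.000413). The effect against mIgG differed between the tissues by -4.31 ± 1.24 on the log2 scale, as hippocampus minus cortex, at an unadjusted p of 0.00186 in edgeR's test, but this did not pass adjustment (adjusted p = 0.245).

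Cxcl11, with at most 5 counts in every library but 1, was not tested in the main fit. The exception was the cortex of mouse 8, with 24 counts or 0.652 CPM, beside 2, 3 and 2 counts in the cortices of mice 9, 16 and 17. In a fit without the count minimum it was not called in any of the 4 comparisons, with adjusted p of 0.540 or more. A value of 0 allows a level of up to 0.169 CPM, 3 counts in the shallowest library by effective size.

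Cxcr3, the receptor of these ligands, was not called in any comparison by edgeR. In the hippocampus it stood at 0.640, 0.0563, 0.123 and 0.315 CPM in IgLON5 mice 8, 9, 16 and 17, beside 0.0476 to 0.226 CPM in mIgG and 0 to 0.0984 CPM in PBS mice. In the cortex the IgLON5 mice held 0.108 to 0.326 CPM, inside the range of the PBS mice (0 to 0.347 CPM). Its log2 fold change was 1.36 with a 95% interval of -0.06 to 2.79 against mIgG and 2.45 (0.89 to 4.01) against PBS in the hippocampus. In the cortex it was 1.50 (0.02 to 2.98) and 0.56 (-0.75 to 1.86). DESeq2 called the hippocampal difference from PBS (adjusted p = 0.0384), and edgeR did so when IgLON5 mouse 9 or 16 was left out. The gene held 0 to 13 counts a library, and the upper bounds of all 4 intervals lie above a fold of 2.

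Cxcl1 and Cxcl2, the ELR ligands, were high in 1 mouse. Cxcl1 held 72, 4, 7 and 10 counts in the hippocampi and 271, 6, 9 and 17 counts in the cortices of IgLON5 mice 8, 9, 16 and 17. That was 3.54, 0.225, 0.215 and 0.287 CPM in the hippocampus and 7.36, 0.217, 0.214 and 0.305 CPM in the cortex. The hippocampal controls ranged from 0.0476 to 0.169 CPM in mIgG and from 0.0586 to 0.394 CPM in PBS mice, the highest being PBS mouse 32 with 24 counts. In the cortex all 4 IgLON5 mice were above all 10 controls, which held 1 to 5 counts each (at most 0.160 CPM).

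Cxcl1 was called in the cortex, with a log2 fold change of 4.98 ± 1.14 against mIgG (adjusted p = 0.00981) and 4.83 ± 1.10 against PBS (adjusted p = 0.00807). It was not called in the hippocampus, at 3.35 ± 1.13 against mIgG (adjusted p = 0.0717) and 2.35 ± 0.975 against PBS (adjusted p = 0.219), although without IgLON5 mouse 16 the hippocampal difference from mIgG was called (3.72, adjusted p = 0.0378). With the cortex of mouse 8 left out, the cortical values were 1.99 (adjusted p = 0.448) and 1.85 (adjusted p = 0.808), and with mouse 8 left out of both tissues the gene no longer reached the count minimum. DESeq2 gave the gene no adjusted p in either tissue.

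Cxcl2 followed the same mouse, with 20 counts in the hippocampus and 70 in the cortex of mouse 8. The other 3 IgLON5 mice held 0, 1 and 1 counts in the hippocampus and 3, 0 and 4 in the cortex. All 9 control hippocampi together held 1 count and all 10 control cortices held 4. In the fit without a count minimum, Cxcl2 was called in the cortex (adjusted p = 0.0254 against mIgG and 0.0441 against PBS) and not in the hippocampus (0.0705 and 0.133).

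Cxcr6, the receptor of CXCL16, was above the controls more evenly over the IgLON5 mice. In the hippocampus it stood at 0.689, 0.507, 0.613 and 0.373 CPM in mice 8, 9, 16 and 17, or 14, 9, 20 and 13 counts. The mIgG mice 10, 15, 37 and 75 held 0.143, 0.451, 0.119 and 0.147 CPM, and the PBS mice held 0.102, 0.0492, 0.117, 0.356 and 0.188 CPM. Only mIgG mouse 15 reached into the IgLON5 range. On the log2 scale Cxcr6 differed by 1.27 ± 0.479 against mIgG (adjusted p = 0.107, not called) and rose by 1.77 ± 0.486 against PBS (adjusted p = 0.0323). Without mIgG mouse 15 the difference from mIgG was called, at 1.95 (adjusted p = 0.018). The call against PBS was lost with only the groups compared (1.78, adjusted p = 0.0698). It was also lost when any 1 of 7 of the 9 libraries was left out (PBS mice 14, 32, 33 and 74 and IgLON5 mice 8, 9 and 16). In those 7 fits the log2 fold change was 1.47 to 1.85, with adjusted p up to 0.113.

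In the cortex the IgLON5 mice held 0.326, 0.469, 0.190 and 0.556 CPM of Cxcr6, all above the 10 controls (0 to 0.168 CPM). Cxcr6 had a log2 fold change of 2.27 ± 0.559 against mIgG (adjusted p = 0.0176) and 1.70 ± 0.514 against PBS (adjusted p = 0.0808, not called). Without IgLON5 mouse 16 the difference from PBS was called (1.95, adjusted p = 0.0301). Mice 9 and 17 were above mouse 8, and without mouse 8 the fold change against mIgG was 2.34 ± 0.600 (adjusted p = 0.0398). The call was lost without mIgG mouse 10 (1.94, adjusted p = 0.0594), mIgG mouse 37 (2.11, adjusted p = 0.0588) or IgLON5 mouse 17 (1.99, adjusted p = 0.0851). Fyco1, which overlaps Cxcr6 on the opposite strand at 52.4 to 108.5 CPM, was not called (0.25 ± 0.0817 in the hippocampus and 0.16 ± 0.0781 in the cortex against mIgG). Its share in the Cxcr6 counts was not tested.

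**Figure D3:**
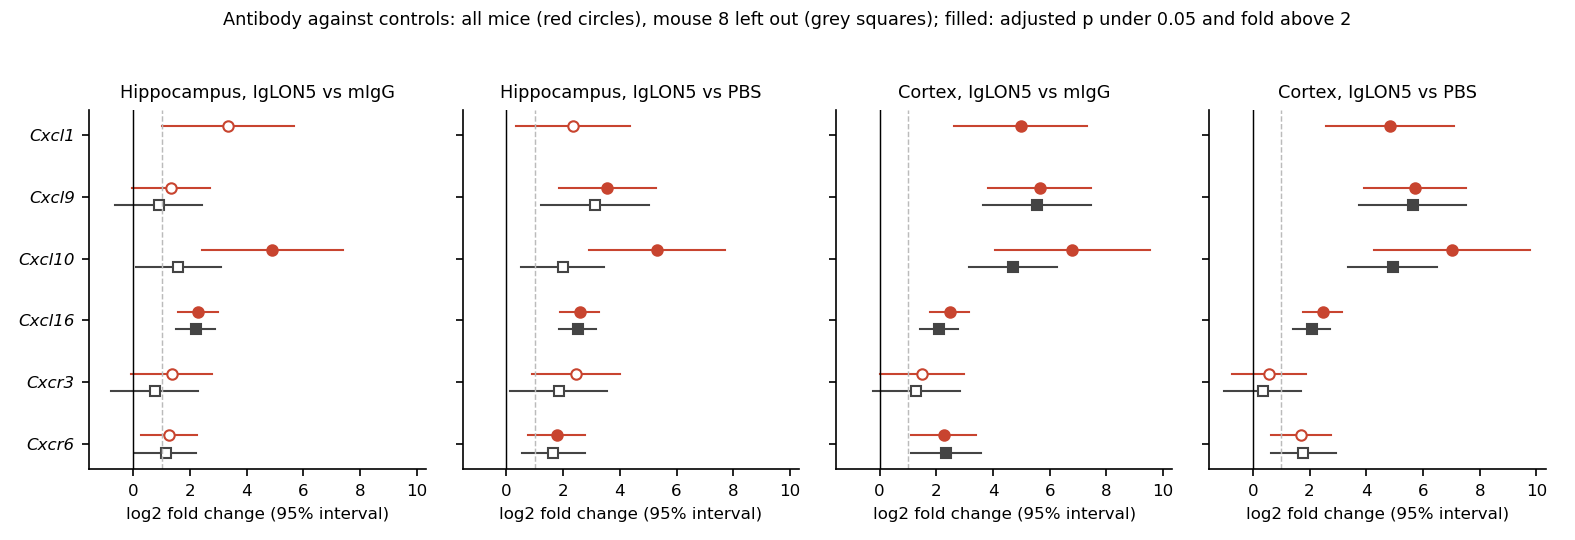
Log2 fold changes of the 6 tested genes with 95% intervals in the 4 comparisons of IgLON5 mice with controls, for all mice (red circles) and with mouse 8 left out of both tissues (grey squares, where the gene still passed the count minimum), with filled symbols for called genes and a dashed line at a fold of 2. Cxcl16 lies between 2.08 and 2.59 in all 4 panels with and without mouse 8, while Cxcl10 moves from 4.91 to 1.60 in the hippocampus against mIgG.

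The counts of called genes without mouse 8, a choice made after its values were seen, were 1 of 5 in the hippocampus against either control (Cxcl16). In the cortex they were 4 of 5 against mIgG (Cxcl9, Cxcl10, Cxcl16 and Cxcr6) and 3 of 5 against PBS (Cxcl9, Cxcl10 and Cxcl16). The shares of all tested genes called higher in these fits were 1.70% and 2.06% in the hippocampus and 1.20% and 1.44% in the cortex, against mIgG and PBS respectively.

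The mix of ligands was set mainly by Cxcl10 and Cxcl16. In the controls, Cxcl16 made up a median of 59.0% to 81.8% of the summed RPKM of the 6 ligands over the 4 groups. In mouse 8 it made up 8.98% in the hippocampus and 11.4% in the cortex, and Cxcl10 made up 85.1% and 77.9%. In mice 9, 16 and 17, Cxcl16 led in the hippocampus with 68.4%, 77.3% and 71.9%. In their cortices Cxcl10 led in mice 9 and 17 with 48.2% and 59.0%, and Cxcl16 in mouse 16 with 79.6%.

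**Figure D4:**
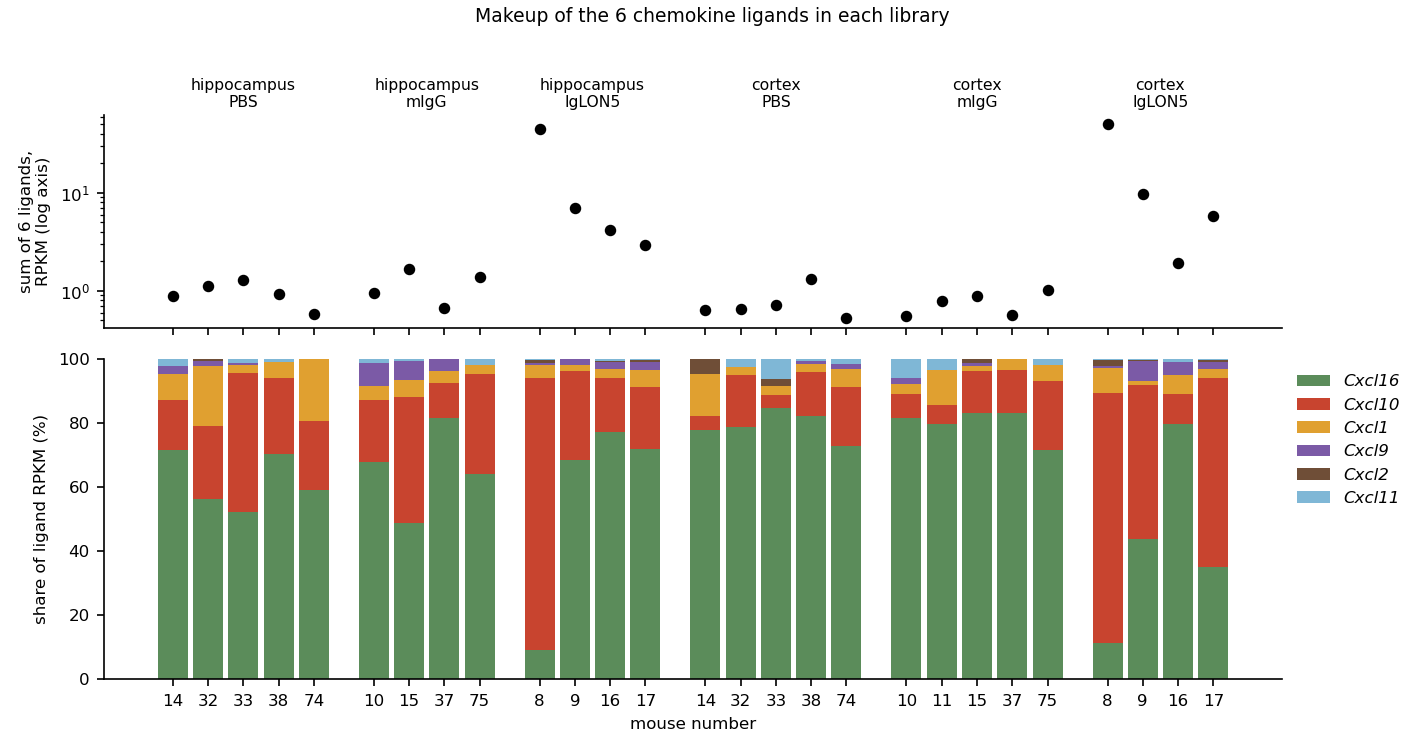
Summed level of the 6 ligand genes per length (top, RPKM on a log axis) and the share of each ligand in that sum (bottom, %), for every library by group and mouse number. The sums were 45.2 and 50.2 RPKM in mouse 8 and 1.92 to 9.80 RPKM in the other IgLON5 libraries, beside 0.526 to 1.67 RPKM in the controls.

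Between tissues of the same mouse, cortical Cxcl10 was above hippocampal Cxcl10 in 3 of 4 IgLON5 mice, in 1 of 4 mIgG mice and in 0 of 5 PBS mice. In PBS mice the 6 tested genes were not called different between cortex and hippocampus, where 2.70% of all tested genes were called higher and 2.87% lower in cortex. Cxcr3 came nearest, with 1.59 ± 0.766 as cortex minus hippocampus on the log2 scale, an unadjusted p of 0.0476 in edgeR's test (the 1 of the 6 under 0.05) and an adjusted p of 0.134. DESeq2 called 0 of the 5 to which it gave an adjusted p. The difference of the antibody effect between tissues was called for 0 of the 6 against either control in edgeR, where 0% of all genes were called against mIgG and 0.00493% against PBS, and only Cxcl9 against mIgG was under 0.05 before adjustment. DESeq2 called 0 of the 2 with an adjusted p against mIgG and 0 of the 5 against PBS. For Cxcl16 that difference was -0.18 with a 95% interval of -1.16 to 0.79, and for Cxcl10 it was -1.89 (-5.75 to 1.96), so for Cxcl10 the design left wide room in either direction. Without mouse 8, the Cxcl10 difference was -3.11 (-5.35 to -0.87) against mIgG, with an adjusted p of 0.523.

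The control antibody itself was compared with PBS. In the hippocampus and in the cortex, 0 of the 6 genes were called by edgeR, where 0.0493% of all tested genes were called higher and 0.0148% lower in the hippocampus and 0 in the cortex. None of the 6 had all mIgG libraries above all PBS libraries, as 1.87% of all genes did in the hippocampus and 0.755% in the cortex. DESeq2 gave adjusted p-values for 2 of the 6 (Cxcl10 and Cxcl16) and called 0 of those. Before adjustment in edgeR, 1 of 6 was under 0.05 in the hippocampus and 0 in the cortex. The 1 was Cxcl9, at 2.23 ± 0.882 on the log2 scale (adjusted p = 0.231). Cxcl16 differed by 0.30 (95% interval -0.39 to 1.00) in the hippocampus and by -0.01 (-0.70 to 0.68) in the cortex. mIgG mouse 15 held the highest hippocampal Cxcl9, Cxcl10, Cxcr3 and Cxcr6 of its group, at 0.301, 1.49, 0.226 and 0.451 CPM.

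The signalling genes that lead to these chemokines moved in part. Of 17 genes of NF-kappaB and cytokine signalling to the ELR ligands, 16 were tested, and 7 were called higher and 0 lower in IgLON5 than in mIgG hippocampi (Il1a, Il1b, Tnf, Tnfrsf1b, Nfkb2, Nfkbiz and Zc3h12a), with a median log2 fold change of 0.93 beside 0.00 over all tested genes. In the cortex 9 of 16 were called higher (median 1.10). Of all tested genes, 2.21% were called higher in the hippocampus and 2.14% in the cortex against mIgG. Tnf, the cytokine with the largest fitted change in the list, held at most 5 counts in any control library and entered the test through the IgLON5 libraries. It stood at 0.184 to 7.28 CPM in IgLON5 hippocampi beside 0 to 0.0564 CPM in mIgG ones. Its call was lost without the hippocampus of mouse 8 (log2 fold change 4.26, adjusted p = 0.155). Nfkbiz, which encodes the nuclear cofactor IκBζ, had the smallest called change, at 1.16 ± 0.229 (adjusted p = 0.00203). Among mice 8 to 17 alone the hippocampal log2 fold changes were 5.96 for Tnf (6.71 in the main fit) and 1.10 for Nfkbiz. Both calls were lost there (adjusted p = 0.330 and 0.225). Without mouse 8 the calls were 5 of 15 in the hippocampus and 3 of 15 in the cortex against mIgG, with Il1a, Il1b and Zc3h12a in both.

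Of 16 genes of interferon signalling to the CXCR3 ligands, 14 were tested. In the hippocampus against mIgG, 2 were called higher (Irf7 and Irf8) and 0 lower, with a median log2 fold change of 0.38. Of all tested genes, 2.21% were called higher there and 0.237% lower. In the cortex 1 was called higher (Irf7, median 0.52), where 2.14% of all were. Irf7, a transcription factor of the type I interferon response, had a log2 fold change of 1.66 ± 0.498 in the hippocampus (adjusted p = 0.0423) and 2.51 ± 0.484 in the cortex (adjusted p = 0.00188). Irf8, a myeloid transcription factor, had 1.38 ± 0.151 in the hippocampus (adjusted p = 1.5e-06). Without mouse 8 the hippocampal call was left to Irf8 and Irf7 was at 1.06 (adjusted p = 0.189). Hippocampal Irf7 also lost its call without mIgG mouse 10 (1.43, adjusted p = 0.140), mIgG mouse 37 (1.53, adjusted p = 0.149) or IgLON5 mouse 9 (1.69, adjusted p = 0.0868). The same held with only the groups compared (1.65, adjusted p = 0.117). Among mice 8 to 17 alone Irf7 was at 1.72 in the hippocampus and 2.52 in the cortex. It was called in neither tissue of that subset (adjusted p = 0.405 and 0.188). Ifng, the gene of interferon gamma, held 0 counts in all 13 hippocampal libraries and 1 count at most in a cortical one, and Ifnb1 held 2 counts at most.

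Among 15 further genes of the CXC family, 8 were tested, and 2 were called in the hippocampus against mIgG (Cxcl5 and Cxcl13) and 3 in the cortex (with Cxcr4), all higher. The shares of all tested genes called higher were 2.21% and 2.14%. Cxcl13, the B cell attractant that binds CXCR5, stood at 2.52 to 18.4 CPM in IgLON5 hippocampi and 0 to 0.0940 CPM in mIgG ones, and it was called in both tissues with and without mouse 8. It held at most 5 counts in any control library and so entered the test through the IgLON5 libraries, where it was high. Among mice 8 to 17 alone its log2 fold change was 7.20 in the hippocampus (7.98 in the main fit) and 7.48 in the cortex. Its call was lost in both tissues of that subset (adjusted p = 0.0627 and 0.0662). Cxcl5, another ELR ligand, had 2.86 ± 0.720 in the hippocampus (adjusted p = 0.0158), and 1.91 (adjusted p = 0.0683) without mouse 8. Its hippocampal call was also lost without mIgG mouse 37 (2.69, adjusted p = 0.0701). Its cortical call was lost without mouse 8 (1.72, adjusted p = 0.193) or without mIgG mouse 15, 37 or 75 (2.63 to 2.78, adjusted p = 0.0513 to 0.0667). With only the groups compared Cxcl5 was at 2.85 in the hippocampus and 2.87 in the cortex and was called in neither (adjusted p = 0.103 and 0.110). Cxcr2, the receptor of the ELR ligands, did not reach the count minimum and was highest in mouse 8 in both tissues, at 10 counts (0.492 CPM) in the hippocampus and 60 counts (1.63 CPM) in the cortex. The other 3 IgLON5 mice held 0 to 2 counts of it in either tissue, and the controls 0 to 5. Of the 3 proteases that process CXCL16 or CXCL10 (Adam10, Adam17 and Dpp4), 0 were called, since the change of Adam17 (0.41 ± 0.0899, adjusted p = 0.00557 in the hippocampus) was under a fold of 2. DESeq2 also called 0 of them, and in edgeR's hippocampal test 2 of the 3 were under 0.05 before adjustment (Adam17 and Dpp4). Dpp4 went the other way from Adam17, lower in IgLON5 mice, at -0.82 ± 0.344 (adjusted p = 0.151).

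Some markers of other cell types were called in the same comparisons, where 2.21% of all tested genes were called higher in the hippocampus and 2.14% in the cortex. Of 10 markers of microglia and macrophages, 6 were called higher in the hippocampus and 4 in the cortex against mIgG, and their sum was 482.1 to 881.8 CPM in IgLON5, 298.9 to 345.8 CPM in mIgG and 269.7 to 329.7 CPM in PBS hippocampi. Of 11 markers of T and NK cells, 4 were tested, and 1 was called in the hippocampus (Cd4) and 2 in the cortex (Cd3g and Klrd1). Their sum was 2.31 to 5.41 CPM in IgLON5, 0.982 to 2.07 CPM in mIgG and 0.706 to 1.08 CPM in PBS hippocampi, where mIgG mouse 15 was the highest control. In the cortex that sum was 6.87 to 8.75 CPM in IgLON5 and 4.10 to 7.42 CPM in control libraries, most of it Trbc2. The other 7 did not reach the count minimum. Cd3e, part of the T cell receptor complex and 1 of those 7, held 4 to 11 counts in IgLON5, 4 to 12 in mIgG and 2 to 7 in PBS hippocampi, or 0.201 to 0.394, 0.0817 to 0.226 and 0.0682 to 0.119 CPM.

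Of 10 markers of neutrophils, 6 were tested and 1 was called in either tissue, Csf3r, which microglia and macrophages also express. In the hippocampus against mIgG, 4 of the 6 had a positive log2 fold change. Ngp (-0.70) and Camp (-0.77) had a negative value, and neither was called. Ly6g, which defines neutrophils, held 2 counts at most in any library and 0 in the IgLON5 cortices. S100a9, a calcium-binding protein abundant in neutrophils and other myeloid cells, had a lowest, median and highest level of 0.238, 0.557 and 7.42 CPM in IgLON5 cortices, beside at most 1.60 CPM in mIgG and 0.914 CPM in PBS cortices. In IgLON5 hippocampi it ranged from 0.225 to 3.99 CPM, beside at most 1.97 CPM in mIgG and 0.919 CPM in PBS ones. S100a8, its partner, reached 3.97 CPM in IgLON5 cortices and 2.41 CPM in IgLON5 hippocampi, beside at most 1.01 and 1.21 CPM in the controls. The highest values of both genes in both tissues were those of mouse 8, which also held the most Cxcl1, Cxcl2 and Cxcr2. Neither was called in any comparison of IgLON5 mice with controls, and for both genes the lowest IgLON5 library was below all controls of its tissue. Of 8 markers of B and plasma cells, 5 were called in the hippocampus and 3 in the cortex against mIgG, and their sum was 7.27 to 91.4 CPM in IgLON5 hippocampi beside 2.64 to 3.74 CPM in the controls. Of the 6 astrocyte markers 1 was called (Gfap) and of the 6 endothelial markers 0, in either tissue. The part of these cell types in the chemokine values was not tested.

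**Figure D5:**
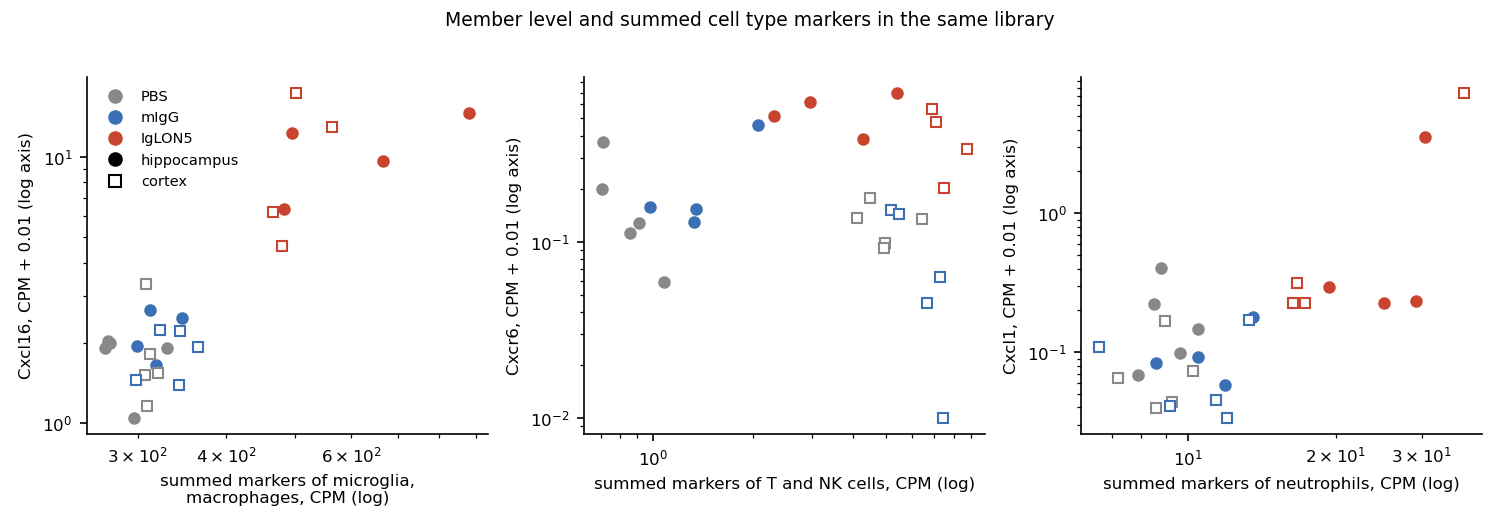
Levels of Cxcl16, Cxcr6 and Cxcl1 (vertical, CPM plus 0.01 on log axes) against the summed markers of microglia and macrophages, of T and NK cells and of neutrophils in the same library (horizontal, CPM on log axes), coloured by treatment, with filled circles for hippocampus and open squares for cortex. All IgLON5 libraries lie above 465 CPM of microglia and macrophage markers and all controls below 366 CPM.

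Over the 27 libraries, the genes whose log2 CPM was most like that of Cxcl10 were Parp9 (Pearson r = 0.966), Mx1 (0.965) and Mx2 (0.959), which are interferon-induced genes. Those most like Cxcl16 were Lcp1 (0.971), Milr1 (0.968) and Apobec3 (0.963). Lcp1 encodes an actin-bundling protein of leukocytes, and Milr1 a receptor of mast cells and other myeloid cells. For Cxcl9 they were Ccl5 (0.909), Lcp1 (0.890) and Tlr2 (0.889), and for Cxcl1 they were Ptx3 (0.901), Dtx3l (0.901) and Sbno2 (0.889). Cxcr6 was most like Fes (0.832), Lgals3bp (0.827) and 9330175E14Rik (0.817), and Cxcr3 most like Tlr8 (0.744), Lrrk1 (0.742) and Tapbp (0.734), at lower values and on few counts. Among the members, Cxcl10 and Cxcl16 had r = 0.862 and Cxcr3 and Cxcr6 had r = 0.359. These correlations are descriptions over libraries that share groups, mice and depth, and they carry no test.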

How the data were processed

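RNA was extracted from cortex and hippocampus of the contralateral hemisphere, and stranded mRNA libraries were sequenced in paired-end mode. The authors aligned reads to GRCm38 with STAR (version 1.4.0 in the submitters' processing notes) and deposited 1 table of counts, in which each cell is a whole number of reads and nothing was normalized. The counting program, annotation release and strand setting are not given in the sources used here. Samples were grouped by the tissue, treatment and mouse number of their labels, and 0 columns were left unassigned. The 20271 genes that reached 10 counts in 4 or more of the 27 libraries were tested with edgeR 4.0.16 in R 4.3.3 (TMM, glmQLFit and glmQLFTest, 6 groups, Benjamini-Hochberg) after tests on simulated data. A call needed an adjusted p under 0.05 and a fold above 2. CPM used the TMM library size, and RPKM the summed exon length of GENCODE M21. Correlations used log2 CPM with 1 count added. Intervals are at 95%.

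Named besides the 8 genes are the called members of each list with the largest and smallest change in IgLON5 against mIgG hippocampi, the 3 genes most like each tested member, and the genes overlapping a member. Other genes are named because their values were seen. The members and lists were chosen with earlier results of these data known. Libraries of a group were no repeats of each other (over 48 pairs the chi-square per degree of freedom was 3.32 or more). Both tissues of a mouse carry its number, which pairs them. The correlation of their deviations from the group means ran from -0.0518 to 0.459 over 13 mice (median 0.192). Alternatives were DESeq2 1.42.0, RLE size factors, other filters, no fold threshold, only the groups compared, only mice 8 to 17, the mouse as replicate block, each library left out and, added after its values were seen, mouse 8 left out of both tissues.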

Additional observations from a re-analysis of the deposited data

Results flagged for a closer look

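A library was marked where its CPM stood apart from all others of its group, by the gap to its neighbour over the range of the group. This held in 13 of 47 sets of 1 gene in 1 group, and chance marks about 1 in 20 sets, or 2.35 here. The sets are not independent, since the same libraries enter for each gene.

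Mouse 8 of the IgLON5 group accounts for 7 of the 13. Its Cxcl10 level was 86.5 CPM in the hippocampus and 88.1 CPM in the cortex. Cxcl1 stood at 3.54 and 7.36 CPM and Cxcl2 at 0.984 and 1.90 CPM in the same tissues, and Cxcl11 at 0.652 CPM in the cortex. The summed genes of NF-kappaB and cytokine signalling were 350.3 and 428.7 CPM in its hippocampus and cortex, beside 168.5 to 218.8 CPM in the other IgLON5 libraries. The neutrophil-associated genes Cxcr2, S100a8 and S100a9 were also highest in mouse 8 among the IgLON5 mice, in both tissues. Not all neutrophil markers followed mouse 8. Csf3r was highest in mouse 9 in the hippocampus (27.9 CPM beside 22.4 in mouse 8) and in mouse 8 in the cortex (23.2 CPM). What sets this mouse apart was not tested.

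mIgG mouse 15 was high in the hippocampus for Cxcr3 (0.226 CPM, 12 counts) and Cxcr6 (0.451 CPM, 24 counts), and its summed T and NK cell markers were the highest of the mIgG hippocampi at 2.07 CPM. The other 4 rest on few counts or on a low value. Cxcl1 was high in the cortex of PBS mouse 14 (0.157 CPM, 5 counts). Cxcl2 was above 0 in 1 library of its group in the hippocampus of PBS mouse 32 (0.0164 CPM) and in the cortex of mIgG mouse 15 (0.0235 CPM), with 1 count each. Cxcl16 was low in the hippocampus of PBS mouse 74 (1.04 CPM), where the other PBS hippocampi were at 1.90 to 2.02 CPM.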

How the results depend on the processing

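DESeq2, RLE size factors, dropping the fold threshold and dropping the count minimum each kept the number of called genes within 1.5 times in all comparisons. With the 6 genes held to 10 counts in every library, 1 gene was called in each of the 4 comparisons of IgLON5 mice with controls (Cxcl16), the 1 gene of the 6 left to test. Fits of only the groups compared tested fewer of the 6 genes. They called 1 of 3 in the hippocampus and 3 of 3 in the cortex against mIgG, and 2 of 3 in the hippocampus against PBS, and in PBS mice they called 1 of 2 between the tissues (Cxcl10, lower in cortex). Among mice 8 to 17 only, 0 genes were called against mIgG in either tissue, with 2 and 3 mIgG libraries. With mouse 8 left out of both tissues, 1 gene was called in the hippocampus against either control. In that fit the differences between tissues turned sign for Cxcl16 against mIgG (0.13) and for Cxcr6 against PBS (-0.12), and neither was called. The cause of these changes was not tested.

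Leaving out 1 library at a time gave 1 to 3 called genes in the hippocampus against mIgG and 1 to 4 against PBS, and 4 to 5 and 3 to 5 in the cortex. The count against mIgG was 1 without mIgG mouse 10, mIgG mouse 37 or IgLON5 mouse 8, where Cxcl10 lost its call, and the count against PBS was 1 without mouse 8. Cxcl16 was called in each of these fits, with log2 fold changes of 2.10 to 2.48 and 2.39 to 2.78 in the hippocampus and 2.09 to 2.73 and 2.08 to 2.77 in the cortex.

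Uncalled differences crossed 0 in these fits. For mIgG against PBS they ran from -0.20 to 0.83 (Cxcl10) and from -0.18 to 0.98 (Cxcr6) in the hippocampus. In the cortex they ran from -0.53 to 0.38 (Cxcl1), -0.42 to 0.59 (Cxcl9), -0.23 to 0.63 (Cxcl10) and -0.15 to 0.30 (Cxcl16). The tissue difference of the effect against mIgG ran from -3.66 to 1.35 (Cxcl1), -5.23 to 0.19 (Cxcl10), -0.44 to 0.19 (Cxcl16) and -0.74 to 0.64 (Cxcr3). Against PBS it ran from -4.52 to 0.49 (Cxcl1), -5.06 to 0.36 (Cxcl10), -0.18 to 0.50 (Cxcl16) and -0.23 to 0.53 (Cxcr6). Between tissues of PBS mice it ran from -0.24 to 0.21 (Cxcl16) and -0.71 to 0.073 (Cxcr6).

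With the mouse as replicate block, which applies to comparisons between tissues only, 0 genes were called in all 3 of them, as without it. The tissue difference of Cxcr3 against mIgG was then 0.0058 in place of -0.13, and neither was called.

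Depth limits Cxcl2, Cxcl9, Cxcl11, Cxcr3 and Cxcr6, which held under 80 counts in every library, and their levels carry counting error that the intervals of counts alone describe.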
